A study of Mus musculus with 36 samples.

Results

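The genes described here are 10 genes of heme and iron handling, chosen by symbol from the 30205 genes listed in 36 RNA-seq libraries of mouse bone cells: Slc48a1, Hmox1, Blvrb, Ftl1, Fth1, Slc40a1, Tfrc, Slc11a1, Slc11a2 and Spic. All 10 passed the filter on low counts in each comparison. Slc48a1 entered the group because earlier results of these data placed it among the genes whose genotype effect differed most between osteoblast and osteoclast cultures. Its levels in those cultures are therefore given as a description, and it is tested only between genotypes in macrophages. Macrophage values may also have entered that choice. The macrophage test of Slc48a1, and the macrophage counts below that include it, are therefore not independent support.

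The study compared wild-type (WT) mice with mice lacking the microRNA gene Mir324 (null), with 6 libraries in each of 6 groups. Marrow was flushed from the long bones of mice 20 weeks old and grown for 3 days in 100 ng/mL of M-CSF, a macrophage growth factor. These bone marrow macrophages (BMM) then received 30 ng/mL M-CSF alone for 5 days, or the same M-CSF with 50 ng/mL RANK-L, the cytokine that drives osteoclast formation, for the osteoclast cultures (OC). Osteoblasts (OB), the bone-forming cells, grew out of collagenase-digested bone chips over about 6 weeks and were kept for 18 days with 2 mM β-glycerophosphate and 50 µg/mL ascorbic acid. The labels give no strain, sex or batch and do not say whether libraries of a group came from separate mice, so p-values measure the spread between these libraries, which may be technical. Levels of the deleted microRNA were not analysed here and give no check of the labels.

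Macrophages recycle the iron of hemoglobin. Heme released in the phagolysosome is carried into the cytosol by HRG1, the product of Slc48a1. Heme oxygenase 1 (Hmox1) opens it to give iron, carbon monoxide and biliverdin, which is reduced to bilirubin. Blvrb encodes a biliverdin reductase, and whether it acts on the product of Hmox1 was not examined. The iron is stored in ferritin, a shell of light (Ftl1) and heavy (Fth1) chains, or leaves the cell through ferroportin (Slc40a1); iron bound to transferrin enters through the transferrin receptor (Tfrc), and Slc11a1 (NRAMP1) and Slc11a2 (DMT1) carry iron out of phagosomes and endosomes. Spic is a transcription factor needed for iron-recycling macrophages of the spleen, and osteoclasts are rich in mitochondria and are known to take up iron through Tfrc as they form.

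Several of these transcripts carry iron-responsive elements, stem-loops bound by iron regulatory proteins when iron is scarce: an element in the 5′ UTR blocks translation, and elements in the 3′ UTR of Tfrc protect the transcript from decay. They are shown because the genes that hold them moved in both directions below. Elements were searched for in the annotated UTRs (GENCODE M21, GRCm38) as a C, 5 stem bases, a CAGTGN loop whose last base is not G, and 5 bases that pair with the stem (G-T pairs included), with 1 unpaired base allowed on the 3′ side. Capitals mark the loop in each window of 30 bases, written 5′ to 3′.
Ftl1 5′ UTR, chr7:45459778-45459807, minus strand: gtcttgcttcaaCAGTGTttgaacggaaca
Fth1 5′ UTR, chr19:9982732-9982761, plus strand: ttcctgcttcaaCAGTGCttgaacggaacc
Slc40a1 5′ UTR, chr1:45925464-45925493, minus strand: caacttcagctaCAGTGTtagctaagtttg
Slc11a2 3′ UTR, chr15:100395152-100395181, minus strand: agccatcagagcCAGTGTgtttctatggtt
Tfrc 3′ UTR, chr16:32631219-32631248, plus strand: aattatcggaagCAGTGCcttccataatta
Tfrc 3′ UTR, chr16:32631598-32631627, plus strand: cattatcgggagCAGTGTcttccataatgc
Tfrc 3′ UTR, chr16:32631663-32631692, plus strand: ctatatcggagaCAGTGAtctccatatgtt
Tfrc 3′ UTR, chr16:32631710-32631739, plus strand: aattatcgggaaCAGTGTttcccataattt
The same pattern lay in the 5′ UTR of 56 of 20380 genes (0.275%) and in the 3′ UTR of 260 of 20915 genes (1.24%). These counts over all genes took any annotated protein-coding transcript, whereas for the 10 genes only transcripts listed in the libraries were kept. Of the 10 genes, 3 held one in the 5′ UTR and 2 in the 3′ UTR; Tfrc held 4 there, and in Slc11a2 only 1 of its transcripts held it, with 1 unpaired base.

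The deleted gene gives 2 mature microRNAs, shown from RefSeq with the seed (bases 2 to 8) in capitals because a seed match is the shortest sequence link between the deletion and these transcripts.
mmu-miR-324-5p: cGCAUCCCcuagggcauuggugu
mmu-miR-324-3p: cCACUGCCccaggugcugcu
A match to the 5p seed (GGGATGC, sense strand) lay in the 3′ UTR of 0 of the 10 genes and of 7.89% of all genes with an annotated 3′ UTR. A match to the 3p seed (GGCAGTG, sense strand) lay in 3 of the 10, Fth1, Slc11a2 and Spic, and in 13.6% of all genes. As with the elements, only transcripts listed in the libraries were kept for the 10 genes, and any annotated protein-coding transcript for all genes. A match is a description of these letters and not evidence of a functional site.

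Each library held between 14118972 and 26347581 estimated counts. Levels are given as CPM, counts per 1000000 after scaling of the library totals by the trimmed mean of M values (TMM), and genes are compared with each other on TPM, which allows for length. The labelled cell types were compared with their markers before the results. Summed over 8 osteoclast markers, WT OC libraries stood between 28299 and 30779 CPM and null OC libraries between 336 and 708 CPM, with Calcr at 0 in all null OC libraries, so the null cultures labelled OC did not carry the osteoclast markers at the WT level. Mmp9 had a mean of 265 CPM in null OC and 186 CPM in null BMM. Null OC replicate 6 stood apart, with Ctsk at 221 CPM (the others at most 64.6) and the osteoblast marker Ibsp at 37.2 CPM (the others at most 0.126). Summed over 8 macrophage markers, levels ran from 11770 to 13084 CPM in WT BMM, 15373 to 16601 in null BMM, 5284 to 5704 in WT OC, 12137 to 16835 in null OC, 3846 to 4513 in WT OB and 2748 to 3252 in null OB. The higher sum in null BMM was that of Adgre1 (mean 7466 CPM against 1892 in WT BMM) and Cd14 (1059 against 504 CPM), while Cd68, Mertk, Fcgr1, C1qa and C1qb had lower means in null BMM and the ranges of Csf1r overlapped. The 8 osteoblast markers together were at 44925 CPM or more in every OB library and at 224 CPM or less in every BMM and OC library. The OB cultures thus also held macrophage transcripts, and osteoclast transcripts at 3917 to 4996 CPM in WT and 4775 to 7272 CPM in null. Among the erythroid markers, Hbb-bs, Hbb-bt and Slc4a1 were at 0 in all 36 libraries and the sum never passed 1.36 CPM, so red cell RNA was close to absent. In these bulk samples, fewer cells of a type and less RNA per cell cannot be told apart.

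**Figure D1:**
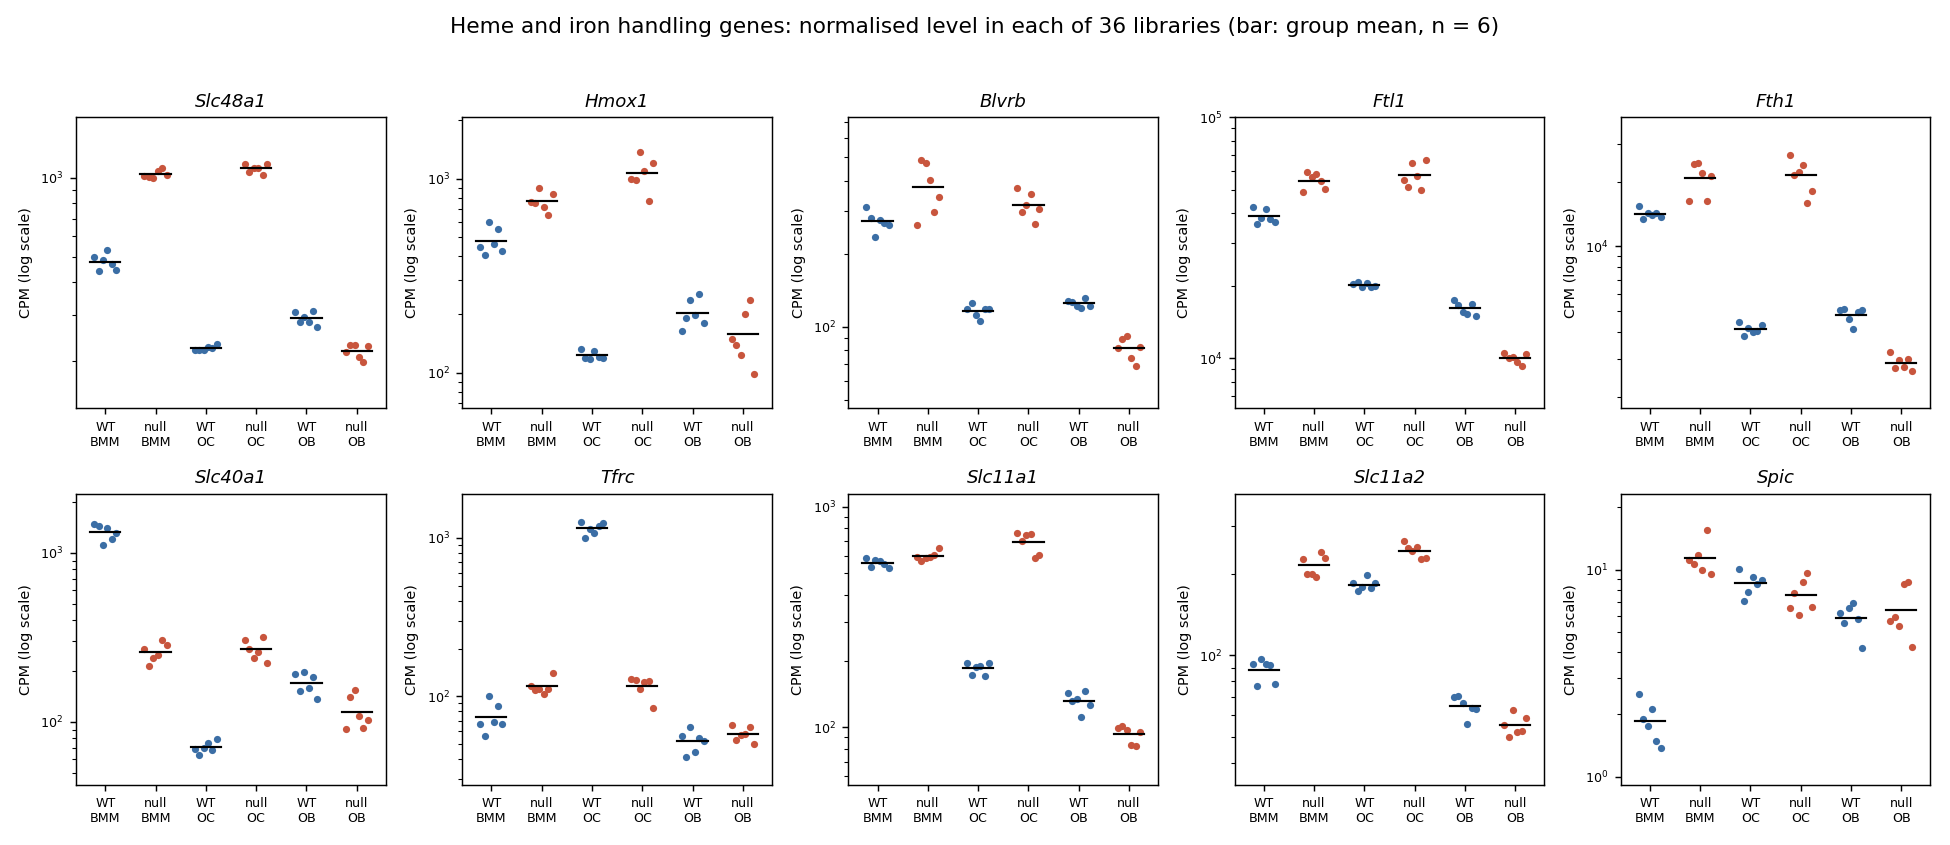
Level of each gene in all 36 libraries (CPM, log axis) by genotype and culture; points are libraries and bars are group means (n = 6). Null BMM and null OC ranges overlap for every gene, while WT OC stands apart from WT BMM, with Tfrc at 1002 to 1267 CPM in WT OC and at or below 141 CPM in every other library.

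Among the 10 genes, those of heme uptake, heme breakdown and iron storage had higher transcript levels in null BMM, and the iron exporter had lower levels. The heme transporter Slc48a1 was 2.18-fold higher, the oxygenase Hmox1 1.61-fold higher and ferroportin 5.06-fold lower in null BMM. Of the 10 genes, 8 rose and 1 fell by edgeR's quasi-likelihood test with Benjamini-Hochberg adjustment (threshold 0.05), where 52.3% of the 11925 genes tested were called, 27.0% higher and 25.4% lower. The median log2 fold change of the 10 was 0.61, and that of all genes tested was 0.02. The groups did not overlap for 8 of the 10, against 30.9% of all genes. These counts include Slc48a1, whose choice may have drawn on macrophage values. Outside the 10, genes of heme transport, binding and breakdown from a list described below went both ways. Of those tested in BMM, 3 rose, 6 fell and 1 was not called, with a median log2 fold change of -0.25.

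Slc48a1 in WT BMM ranged from 440 to 529 CPM with a median of 477. In null BMM it ranged from 999 to 1090 CPM with a median of 1023. Every null library lay above every WT library, and the log2 fold change was 1.13 (SE 0.06, edgeR adjusted p = 2.43e-10). Hmox1 ranged from 405 to 600 CPM in WT BMM (median 454) and from 654 to 892 CPM in null BMM (median 756), again without overlap. Its log2 fold change was 0.69 (SE 0.10, edgeR adjusted p = 3.27e-05). Blvrb was less even. Its WT libraries stood at 235 to 311 CPM and its null libraries at 263 to 486 CPM, with overlap, and the log2 fold change was 0.49 (SE 0.14, edgeR adjusted p = 0.00829).

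The ferritin chains rose to a similar extent. Ftl1 went from a median of 38047 CPM (36278 to 42351) in WT BMM to 55685 CPM (48845 to 59409) in null BMM, a log2 fold change of 0.50 (SE 0.07, edgeR adjusted p = 1.35e-05). Fth1 went from 14178 CPM (13405 to 15331) to 21573 CPM (16224 to 24460), a log2 fold change of 0.56 (SE 0.10, edgeR adjusted p = 0.000263). Neither pair of groups overlapped, although null BMM replicates 1 and 5 had Fth1 levels of 16314 and 16224 CPM, close to the highest WT library. Of the 31-base sequences in Ftl1 transcripts, 48.83% also occur in other listed genes, and 12.68% of those in Fth1, so the split of reads between ferritin genes and their copies is uncertain. With the copies that share most of their sequence (Ftl2-ps and Gm15590) summed into Ftl1, its log2 fold change was again 0.50.

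Slc40a1 moved the other way. WT BMM libraries stood between 1118 and 1492 CPM (median 1355) and null BMM libraries between 214 and 307 CPM (median 258), a log2 fold change of -2.34 (SE 0.09, edgeR adjusted p = 9.67e-12). No other group reached the level of WT BMM; the next highest library of any group was at 318 CPM. Tfrc rose slightly, from 56.4 to 100.0 CPM in WT BMM to 103 to 141 CPM in null BMM (log2 fold change 0.65, SE 0.12, edgeR adjusted p = 0.000352). Slc11a2 rose more, from a median of 92.3 CPM (76.8 to 96.6) to 213 CPM (194 to 241), a log2 fold change of 1.30 (SE 0.08, edgeR adjusted p = 1.27e-09). The phagosomal carrier Slc11a1 overlapped between the groups, with 529 to 588 CPM in WT and 569 to 649 CPM in null BMM, and its log2 fold change of 0.12 did not pass the edgeR test (adjusted p = 0.0723). DESeq2 called it at an adjusted p of 0.0433, and over the 21 alternatives its adjusted p ran from 0.0363 to 0.179.

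Spic had the largest fold of the 10 in BMM from the lowest level. WT BMM libraries held 1.37 to 2.52 CPM (median 1.83) and null BMM libraries 9.48 to 15.5 CPM (median 10.9), a log2 fold change of 2.64 (SE 0.17, edgeR adjusted p = 3.33e-09). The 5 red pulp macrophage markers, a list that includes Spic itself, summed to 83.8 to 109 CPM in WT BMM and 114 to 139 CPM in null BMM, but went in opposite directions. Siglec1 had a mean of 77.2 CPM in WT and 20.6 CPM in null BMM, whereas Cd5l went from 5.87 to 53.9 CPM, Treml4 from 5.68 to 27.7 CPM and Vcam1 from 3.20 to 10.9 CPM. The 8 neutrophil markers together were at 6.51 to 17.0 CPM in null BMM and 0.143 to 0.396 CPM in WT BMM, nearly all of it S100a8 (mean 10.7 CPM in null BMM), with S100a9, Elane and Ltf at 0 in all null BMM libraries. The part of these markers, or of the macrophage markers given above, in the differences was not tested.

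RANK-L changed all 9 of the genes tested in WT cells. Slc48a1 was left untested here; of the others, 3 rose (Tfrc, Slc11a2 and Spic) and 6 fell (Hmox1, Blvrb, Ftl1, Fth1, Slc40a1 and Slc11a1) in WT OC against WT BMM by edgeR's test, where 60.5% of 12661 genes were called, 30.4% higher and 30.1% lower. When only the library total was used for scaling, the calls over all genes shifted from 3850 higher and 3813 lower to 4938 higher and 2967 lower, and the median of all genes from 0.00 to 0.14 on the log2 scale; the 9 genes kept their directions. The groups did not overlap for any of the 9 genes tested, against 50.4% of all genes without overlap.

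Iron import and export moved furthest apart. Tfrc went from a median of 67.6 CPM (56.4 to 100.0) in WT BMM to 1165 CPM (1002 to 1267) in WT OC, a log2 fold change of 4.0 (SE 0.13, edgeR adjusted p = 4.43e-20), or 16.1-fold. Slc40a1 went from a median of 1355 CPM to 69.2 CPM (63.6 to 78.6), a log2 fold change of -4.19 (SE 0.10, edgeR adjusted p = 7.27e-23), or 18.3-fold lower. On TPM, ferroportin was the most abundant of the 8 non-ferritin genes in WT BMM, at a mean of 606 TPM (SD 57.8, n = 6) against 22.4 TPM for Tfrc (SD 5.24, n = 6). In WT OC the order was turned round, with Tfrc at 398 TPM (SD 39.6, n = 6) and ferroportin at 36.9 TPM (SD 3.33, n = 6).

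The heme breakdown and storage genes fell with RANK-L in WT cells. Hmox1 fell from a median of 454 to 120 CPM (118 to 132), by 1.92 on the log2 scale (edgeR adjusted p = 2.85e-14, SE 0.11). Fth1 fell by 1.73 on the log2 scale (edgeR adjusted p = 4.58e-14, SE 0.11) and Ftl1 by 0.90 (SE 0.07, edgeR adjusted p = 8.6e-12). Blvrb fell by 1.18 and Slc11a1 by 1.54, with WT OC libraries at 106 to 125 CPM and 171 to 196 CPM. Slc48a1 stood at 220 to 233 CPM in WT OC (median 223) against 440 to 529 CPM in WT BMM, a log2 difference of -1.05 that is given without a test. Spic rose to 7.02 to 10.1 CPM, a log2 fold change of 2.26 (SE 0.16, edgeR adjusted p = 1.72e-12).

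In null cells few of these genes were called. By edgeR's test 3 of 9 were called, Hmox1 and Slc11a1 higher and Spic lower, where 12.9% of all genes were called (6.78% higher, 6.07% lower). Tfrc stood at 84.5 to 128 CPM in null OC (median 124) and 103 to 141 CPM in null BMM (median 111), a log2 fold change of 0.00 (SE 0.11). Slc40a1 stood at 222 to 318 CPM (median 265) and 214 to 307 CPM (median 258), a log2 fold change of 0.04 (SE 0.09). The ranges of null OC and null BMM overlapped for all 9 genes tested, where 2.31% of all genes did not overlap.

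The 3 calls in null cells were small. Hmox1 was at 771 to 1382 CPM in null OC and 654 to 892 CPM in null BMM (log2 fold change 0.48, SE 0.11, edgeR adjusted p = 0.00757). Spic was at 6.07 to 9.67 CPM and 9.48 to 15.5 CPM (log2 difference -0.61, SE 0.15, edgeR adjusted p = 0.0103). Slc11a1 was at 583 to 763 CPM and 569 to 649 CPM (log2 difference 0.20, SE 0.06, edgeR adjusted p = 0.0334). This last call was lost without null BMM replicate 2, 3 or 4 or null OC replicate 1, 2, 3 or 4, each left out alone, with edgeR adjusted p between 0.0563 and 0.0792. Conversely Blvrb was called without null BMM replicate 1 (edgeR adjusted p = 0.0254, range over 21 alternatives 0.0254 to 0.366) and Slc11a2 without null BMM replicate 5 (edgeR adjusted p = 0.0315, range 0.0315 to 0.242).

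The RANK-L response itself differed between genotypes for all 9 genes tested, by the interaction term of the edgeR fit over 24 libraries, where 51.3% of all genes were called. The difference in log2 response, null minus WT, was 4.23 for Slc40a1 (SE 0.13, edgeR adjusted p = 6.12e-20) and -4.0 for Tfrc (SE 0.16, edgeR adjusted p = 5.07e-17). For Hmox1 it was 2.40 (SE 0.16) and for Fth1 1.77 (SE 0.15). Spic and Slc11a2, which rose with RANK-L in WT, had differences of -2.87 (SE 0.22) and -0.92 (SE 0.09). With the library total alone as the scale, the calls over all genes shifted from 3197 higher and 3304 lower to 2435 higher and 4262 lower, and the 9 directions held. The osteoclast marker sums given above (336 to 708 CPM in null OC) differed between the same cultures, and their part in the result was not tested.

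**Figure D2:**
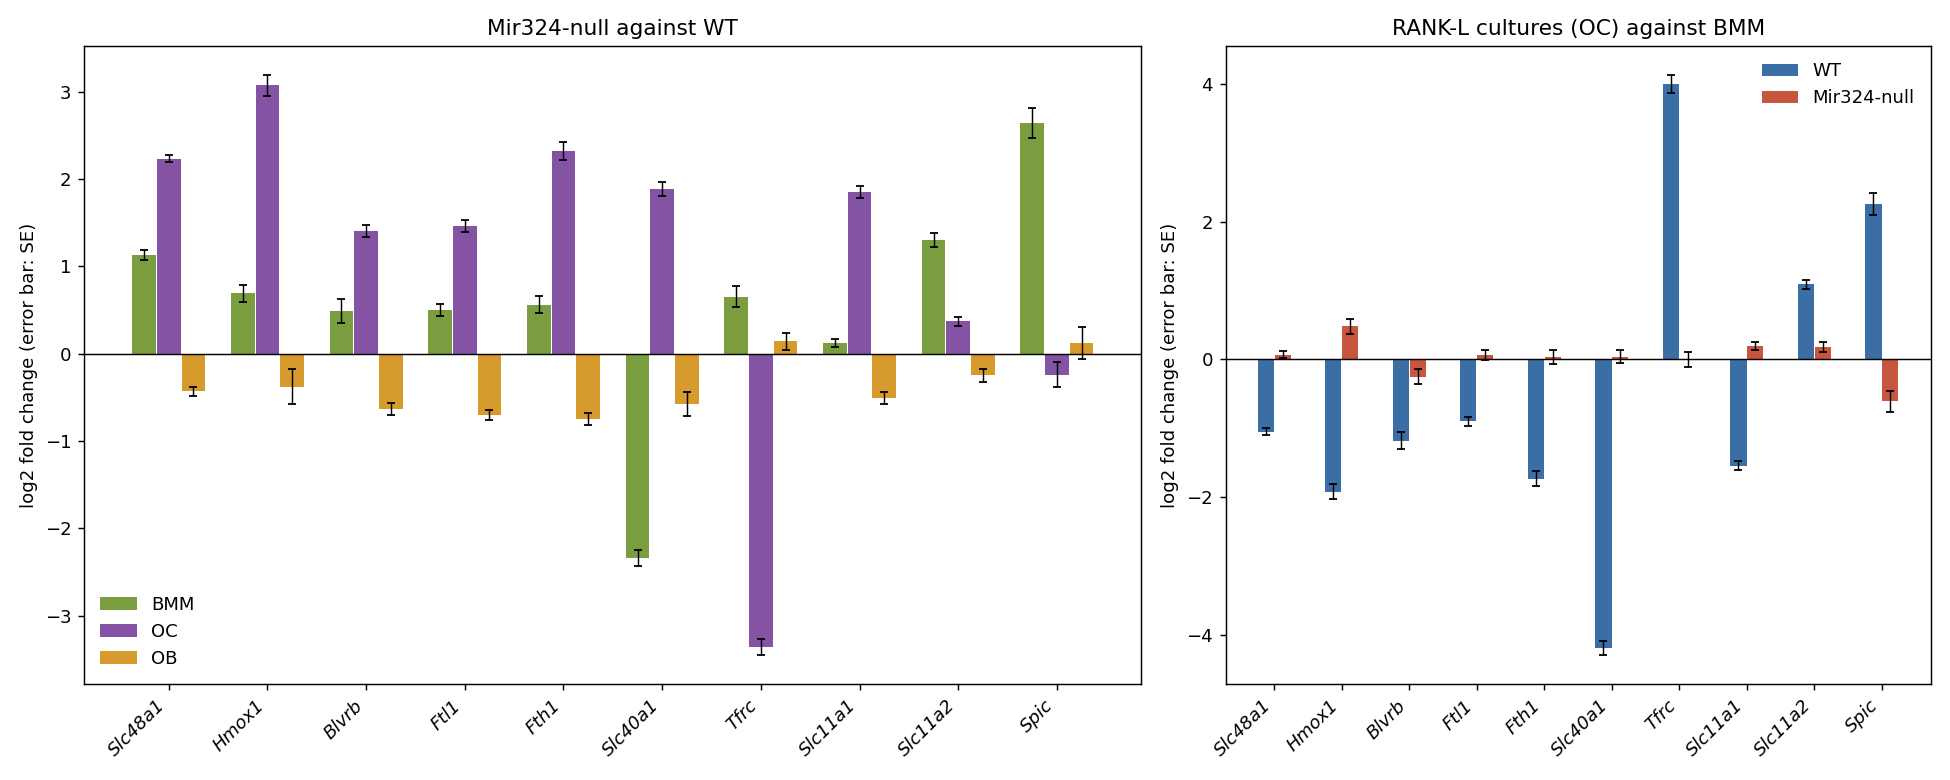
Log2 fold changes of the 10 genes with standard errors (n = 6 libraries per group): null against WT in each culture (left) and OC against BMM in each genotype (right). Slc40a1 has opposite signs in BMM and OC, and the WT bars for Tfrc (4.0) and Slc40a1 (-4.19) have null counterparts near 0.

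The null OC and WT OC cultures thus differed in most of these genes. Null OC libraries had higher Slc48a1, Hmox1, Blvrb, ferritin, ferroportin and Slc11a1, and lower Tfrc. Of the 9 genes tested, 7 rose and 1 fell by edgeR's test, where 65.6% of 12121 genes were called (32.4% higher, 33.1% lower), and the groups did not overlap for 8 of the 9, against 45.4% of all genes. The median of the 9 was 1.46 on the log2 scale and that of all genes -0.03; with the library total alone it was -0.19, and the calls over all genes were 2990 higher and 5262 lower instead of 3928 and 4018. This comparison shares its WT OC libraries with the WT response above, and its null OC libraries with the null response; the BMM libraries likewise enter both the genotype comparison in BMM and the RANK-L responses.

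Hmox1 showed the largest rise, from a median of 120 CPM (118 to 132) in WT OC to 1046 CPM (771 to 1382) in null OC, an 8.43-fold difference (log2 fold change 3.07, SE 0.12, edgeR adjusted p = 1.08e-12). Slc48a1 stood at 220 to 233 CPM in WT OC and 1031 to 1135 CPM in null OC, a 4.68-fold difference that belongs to the choice of the gene and carries no test. Tfrc fell from 1002 to 1267 CPM in WT OC to 84.5 to 128 CPM in null OC, 10.3-fold lower (log2 fold change -3.36, SE 0.09, edgeR adjusted p = 2e-14). Slc40a1, which was lower in null BMM, was higher in null OC, at 222 to 318 CPM against 63.6 to 78.6 CPM (log2 difference 1.88, SE 0.08, edgeR adjusted p = 3.83e-12).

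The heavy ferritin chain rose more than the light chain in null OC. Fth1 went from 3844 to 4458 CPM in WT OC to 15961 to 26491 CPM in null OC (log2 fold change 2.32, SE 0.10, edgeR adjusted p = 2.45e-12), and Ftl1 from 19731 to 20839 CPM to 49889 to 66671 CPM (log2 difference 1.46, SE 0.07, edgeR adjusted p = 2e-11). Blvrb rose by 1.40 (SE 0.07) and Slc11a1 by 1.85 (SE 0.07) on the log2 scale. Slc11a2 rose least of the genes called, by 0.37 (SE 0.05, edgeR adjusted p = 5.26e-06). Spic, at 7.02 to 10.1 CPM in WT and 6.07 to 9.67 CPM in null OC, did not pass the test (log2 fold change -0.24, edgeR adjusted p = 0.149); it did with the library total alone (-0.40, adjusted p = 0.0217), and its adjusted p over 21 alternatives ran from 0.0217 to 0.355. The macrophage marker sums (5284 to 5704 CPM in WT OC, 12137 to 16835 CPM in null OC) moved in the same direction as the genes that rose, with Cd68 alone of the 8 markers at a lower mean in null OC, and their part in the result was not tested.

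Ferritin was a large part of the transcriptome in the myeloid cultures. The Ftl1 and Fth1 transcripts together made up 10.1% of TPM in WT BMM (SD 0.459, n = 6), 13.0% in null BMM (SD 0.518) and 14% in null OC (SD 0.909), but 5.12% in WT OC (SD 0.211). Osteoblast cultures held less, at 4.03% in WT (SD 0.245, n = 6) and 2.80% in null (SD 0.16). Ftl1 was the transcript sum of highest TPM of all genes in every WT and myeloid library and ranked 1st to 3rd in null OB. The ratio of light to heavy chain TPM was 4.26 in WT OC (3.97 to 4.70) and 2.38 in WT BMM (2.29 to 2.58), without overlap. In null OC it was 2.39 (1.80 to 3.18) and in null BMM 2.33 (2.01 to 2.92), which overlap.

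**Figure D3:**
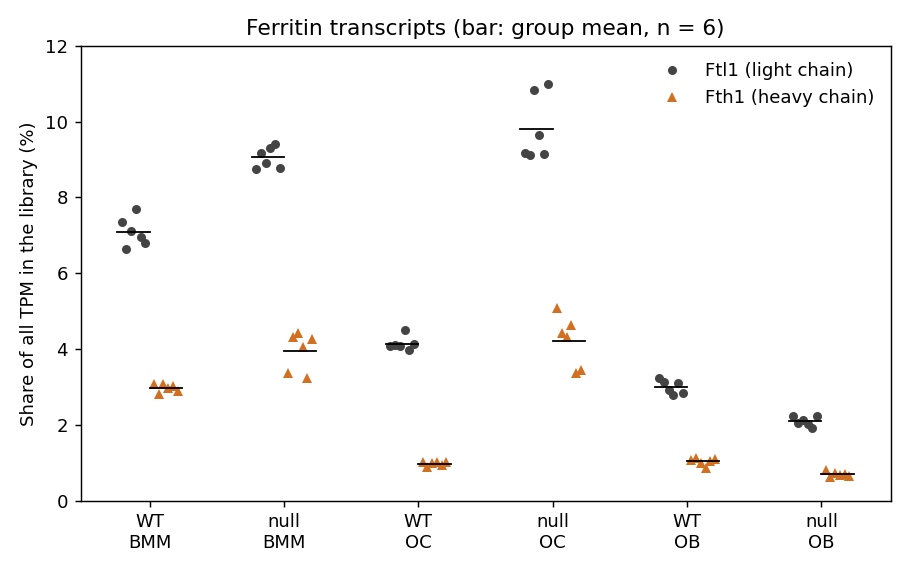
Share of all TPM in each library held by the light (Ftl1, circles) and heavy (Fth1, triangles) ferritin chain; bars are group means (n = 6). Both chains are low in WT OC and OB, and the sum of the group means runs from 2.80% in null OB to 14% in null OC.

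In OB cultures the direction was the opposite of that in OC. Of the 9 genes tested, 6 fell in null OB (Blvrb, Ftl1, Fth1, Slc40a1, Slc11a1 and Slc11a2) and 0 rose by edgeR's test, where 32.5% of 13607 genes were called, 15.5% higher and 16.9% lower. The median of the 9 was -0.51 and that of all genes 0.00 on the log2 scale. The fall was modest, with 1.19-fold to 1.69-fold lower levels. With an offset for GC content and length of transcripts, the genes called over the whole table went from 4420 to 2023, and the number among the 9 stayed at 6.

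The ferritin chains fell furthest in null OB. Fth1 went from a median of 5006 CPM (4151 to 5147) in WT OB to 2860 CPM (2652 to 3247) in null OB, a log2 fold change of -0.75 (SE 0.07, edgeR adjusted p = 5.75e-06). Ftl1 went from 16089 CPM (15031 to 17557) to 10091 CPM (9303 to 10502), a log2 fold change of -0.70 (SE 0.06, edgeR adjusted p = 3.93e-06). Neither pair of groups overlapped. Blvrb (120 to 131 CPM in WT, 69.2 to 92.0 CPM in null) and Slc11a1 (111 to 146 CPM in WT, 82.4 to 101 CPM in null) also fell without overlap, by 0.63 and 0.51 on the log2 scale. Slc40a1 and Slc11a2 overlapped between genotypes and fell by 0.58 (SE 0.14, edgeR adjusted p = 0.00762) and 0.25 (SE 0.07, edgeR adjusted p = 0.0128). For 4 of the 9 genes the groups did not overlap, where 15.8% of all genes did not.

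Slc48a1, described without a test, stood at 269 to 312 CPM in WT OB and 198 to 230 CPM in null OB, a log2 difference of -0.43. Hmox1 varied widely, at 165 to 255 CPM in WT OB and 98.2 to 236 CPM in null OB, and did not pass (log2 fold change -0.38, SE 0.20, edgeR adjusted p = 0.165). Without null OB replicate 5, the library at 236 CPM, it was -0.53 with an edgeR adjusted p of 0.0401; over 21 alternatives the adjusted p ran from 0.0401 to 0.532. Tfrc (41.3 to 63.9 CPM in WT, 49.8 to 65.4 CPM in null) and Spic (4.18 to 6.88 and 4.22 to 8.74 CPM) had edgeR adjusted p of 0.315 and 0.663. The macrophage marker sum was lower in null OB (2748 to 3252 CPM) than in WT OB (3846 to 4513 CPM), while its member Csf1r, the M-CSF receptor, was at 632 to 684 CPM in null and 559 to 689 CPM in WT OB. The osteoblast marker sum was higher in null OB (80135 to 98676 CPM) than in WT OB (44925 to 63823 CPM). The osteoclast marker sum had a mean of 5877 CPM in null OB (4775 to 7272) and 4600 CPM in WT OB (3917 to 4996), with overlap. The part of these marker sums in the falls was not tested.

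The genotype effect differed between OB and OC for 8 of the 9 genes by edgeR's interaction test over all 36 libraries, where 55.2% of all genes were called (3973 higher and 3908 lower, or 4972 and 3182 with the library total alone). The difference in log2 genotype effect, OB minus OC, was -3.44 for Hmox1 (SE 0.22, edgeR adjusted p = 6.89e-16), -3.06 for Fth1 (SE 0.14, edgeR adjusted p = 2.02e-20) and 3.52 for Tfrc (SE 0.16, edgeR adjusted p = 3.16e-20). The exception was Spic, at 0.37 (SE 0.23, edgeR adjusted p = 0.178). Slc48a1 itself had a difference of -2.64, the value on which it was chosen. Of the 9, then, those that were higher in null OC and lower in null OB were Blvrb, both ferritin chains, Slc40a1, Slc11a1 and Slc11a2.

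Over all 6 groups, Slc48a1 stood highest in null OC (mean 1087 CPM, SD 40.6, n = 6) and null BMM (1034 CPM, SD 34.4), whose ranges overlapped. WT BMM (478 CPM, SD 34.0), WT OB (291 CPM, SD 17.1) and WT OC (224 CPM, SD 4.84) followed without overlap between neighbours, and WT OC overlapped with null OB (218 CPM, SD 13.6). Hmox1 kept nearly the same order, with WT OC last at 123 CPM (SD 6.32). Among 8950 genes with a mean of at least 10 CPM, the patterns most like that of Slc48a1 over the 36 libraries were those of Cxcl16, Limd2, Pilra and Clec4e, with Pearson correlations of log2 CPM from 0.987 to 0.990. The closest to Hmox1 were Grina, Tnfrsf1b and Slamf7, from 0.962 to 0.966. These values describe 6 tight groups rather than 36 independent points, so no p-value is given. Hdac7 lies on the opposite strand and overlaps Slc48a1; its highest level in any library was 21.8 CPM.

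Slc11a2 has alternative 3′ ends, and only the transcript ENSMUST00000138843 holds the iron-responsive element printed above. As a share of all Slc11a2 TPM this transcript made up 16.9 to 22.6% in WT OC (median 20.2%) and 7.27 to 10.7% in null OC (median 9.46%). In WT BMM it was 7.49 to 11.7% (median 9.0%) and in null BMM 7.67 to 10.4% (median 9.01%). WT OC libraries all lay above every BMM and null OC library. The share was 10.78 percentage points higher in WT OC than in WT BMM and differed by -10.58 points between null OC and WT OC (exact two-sided permutation tests, n = 6 per group, p = 0.00216 each, the smallest that 6 against 6 allows; adjusted over 5 tests, 0.00541).

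In the other comparisons the share of this transcript did not pass the test. Null and WT BMM differed by -0.08 points (exact permutation test, adjusted p = 0.898), and null OC and null BMM by 0.28 points (exact permutation test, adjusted p = 0.882). In OB it made up 12.1 to 16.1% in WT (median 13.2%) and 12.5 to 19.8% in null (median 14.1%), a difference of 1.59 points (exact permutation test, adjusted p = 0.418). In level the transcript stood at a mean of 4.58 TPM in WT BMM (SD 0.832, n = 6) and 23.7 TPM in WT OC (SD 3.3), while the main transcript without the element, ENSMUST00000023774, stood at 35.5 TPM (SD 3.39) and 61.8 TPM (SD 3.38). As a share of estimated counts in place of TPM, the 2 differences past the threshold were 19.07 and -17.86 points. These are estimates from reads shared between transcripts, and the error of that assignment is not part of the spread between libraries.

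**Figure D4:**
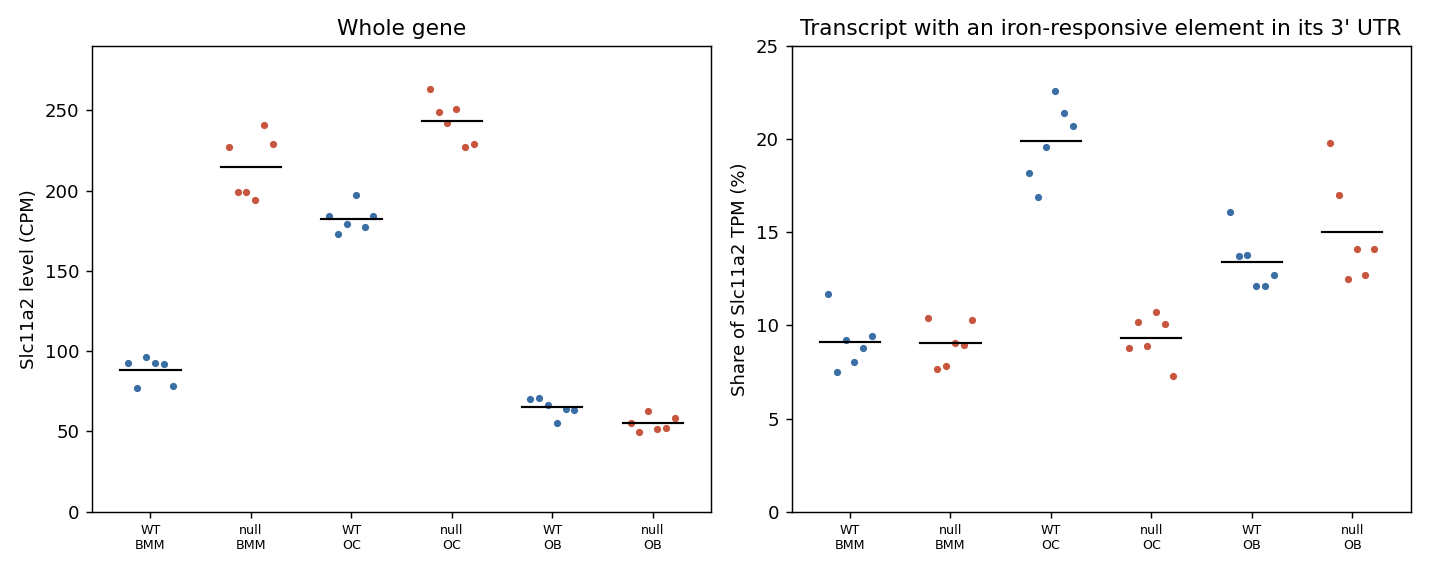
Slc11a2 level (CPM, left) and share of its TPM held by the transcript with an iron-responsive element in its 3′ UTR (%, right), by library; bars are group means (n = 6). Null BMM and null OC have the highest gene level but element shares of 7.27 to 10.7%, while the 6 WT OC libraries lie at 16.9 to 22.6%.

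The other genes of heme and iron metabolism, a list of 53 without the 10 above, moved in both directions. In null against WT BMM 18 rose and 13 fell of the 44 tested, and in OC 15 rose and 13 fell of 45, with medians of 0.04 and 0.00 on the log2 scale. In OB 5 rose and 11 fell of 49. In the WT response to RANK-L 18 rose and 14 fell of 45, and in the null response 3 rose and 3 fell. The share called was 70.5% in BMM, 62.2% in OC, 32.7% in OB, 71.1% in the WT response and 13.3% in the null response, against 52.3%, 65.6%, 32.5%, 60.5% and 12.9% of all genes. In the WT response, the 10 genes of mitochondrial iron and iron-sulfur clusters had 9 higher and 1 lower. In the null response 0 of them were called, and the medians were 0.58 in WT and -0.04 in null. Other parts of the list were mixed in the WT response. Heme synthesis had 3 higher and 1 lower of 8 tested, and heme transport, binding and breakdown 2 and 6 of 10. Iron uptake, reduction and export had 2 and 2 of 7, and storage, chaperones and regulation 2 and 4 of 10.

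Genes of the list with the smallest p-values are named for each comparison. Hp, the hemoglobin scavenger haptoglobin, was at 38.6 to 44.0 CPM in null BMM and 22.4 to 32.5 CPM in null OC but at no more than 0.396 CPM in any WT BMM or WT OC library. Lcn2, a binder of iron-carrying siderophores, was at 6.51 to 13.7 CPM in null BMM and at 0 in all but 1 of the WT BMM libraries. In null OC it was at 5.47 to 10.1 CPM, and no WT OC library passed 0.0497 CPM. Cd163, the macrophage receptor for hemoglobin bound to haptoglobin, fell in null BMM, from 22.7 to 29.4 CPM to 7.76 to 13.2 CPM (log2 difference -1.32, edgeR adjusted p = 2.71e-07), and Lrp1, a receptor for heme bound to hemopexin, from 613 to 841 CPM to 282 to 428 CPM (-1.16, edgeR adjusted p = 1.95e-07). In OC, by contrast, Cd163 was higher in null cultures, at 7.34 to 13.8 CPM against 2.00 to 3.48 CPM in WT (log2 fold change 1.99, edgeR adjusted p = 3.24e-08).

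In null OC, Slc39a8, a zinc and iron importer, was at 30.0 to 38.2 CPM against 8.85 to 10.2 CPM in WT OC (log2 fold change 1.72, edgeR adjusted p = 1.09e-11). Ncoa4, the receptor that delivers ferritin to autophagy, fell from 252 to 288 CPM in WT OC to 97.5 to 153 CPM in null OC (-1.24, edgeR adjusted p = 6.91e-10). The metalloreductase Steap4 was at 49.3 to 62.5 CPM in every WT OC library and at 0 in 5 of 6 null OC libraries, the other holding 0.314 CPM; in WT BMM it was at 0 in 5 of 6 libraries, and in OB at 44.6 to 83.9 CPM in both genotypes. Steap4 was thus a gene of WT OC and of OB cultures and was all but missing from BMM and null OC.

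With RANK-L in WT cells, Cisd1, an iron-sulfur protein of the mitochondrial outer membrane, rose from 26.9 to 33.8 CPM to 80.5 to 102 CPM (log2 difference 1.59, edgeR adjusted p = 3.38e-15). Cd163 fell to 2.00 to 3.48 CPM (-3.19, edgeR adjusted p = 3.65e-16) and Slc39a8 fell to 8.85 to 10.2 CPM (-1.87, edgeR adjusted p = 7.74e-15). In null against WT OB, Lrp1 rose by 0.73 (edgeR adjusted p = 1.27e-05) and Ireb2, which encodes an iron regulatory protein, by 0.40 (edgeR adjusted p = 0.00152). Blvra, the other biliverdin reductase, and Hmox2, the constitutive heme oxygenase, fell by 0.55 and 0.45 on the log2 scale in null OB (edgeR adjusted p = 1.7e-05 for each). In OB cultures the fall of Blvrb was therefore shared by Blvra and Hmox2. In BMM, where Blvrb was higher in null, Blvra was lower, at 252 to 300 CPM in WT and 200 to 247 CPM in null (log2 fold change -0.27, edgeR adjusted p = 0.00242). Hmox2 was not called in BMM (log2 fold change -0.02, edgeR adjusted p = 0.84).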

How the data were processed

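RNA-seq libraries from 36 cultures (6 groups of 6) were used. Per the labels' protocols, total RNA came from the mirVana kit and sequencing libraries from the NEB low input kit. The submitters' processing notes name kallisto, DESeq2 and the build GRCh38, with no versions or roles; the transcript identifiers are those of mouse. The authors deposited, for each library, estimated counts and TPM per transcript, per the file headers. Of 88198 transcripts, 97.5% matched GENCODE M21 (GRCm38) by identifier, 88.9% of them with the annotated length; the rest held 0.63 to 0.97% of a library's counts and were left out. Estimated counts were summed per gene (30205 genes) and rounded. Whether the counting used strand is not given in the sources used here.

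The genes, lists, markers and tests were chosen with earlier results of these data known. Beside the 10 genes, the text names the 2 higher and 2 lower list genes with the smallest p in each genotype comparison and in WT OC against BMM, and the 4 genes most alike in pattern to Slc48a1 and to Hmox1. Of these, 1 is not reported here. Blvra levels in BMM and OB, Steap4 levels outside OC, Cd163 in null against WT OC and single marker genes were added after values were seen. So were Ncoa4 and Hmox2 in BMM, Lcn2 in OC and the counts for parts of the list.

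In edgeR 4.0.16 (limma 3.58.1, R 4.3.3), low genes were removed by filterByExpr, totals were scaled by TMM, and robust quasi-likelihood tests were run with Benjamini-Hochberg adjustment over all genes tested. Genotype comparisons used 12 libraries, RANK-L responses 24 and OB against OC 36. The fits were tested on simulated data. Library totals of 14118972 to 26347581 counts limit precision by counting error only, without molecular identifiers. The closest replicates differed by a chi-square of 3.46 per gene, so none was merged. Alternatives were DESeq2 1.42.0, RLE scaling, a filter at a mean of 10 counts or none, a length and GC offset, ferritin copies summed, the replicate number as a block, and each library left out; scaling by library total, TMM without the ferritins, and a Slc11a2 share over only 2 transcripts were added after the data were seen.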

Additional observations from a re-analysis of the deposited data

Results flagged for a closer look

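In null BMM, replicate 6 had a Tfrc level of 141 CPM, far from the other 5 libraries (103 to 116 CPM). Chance flags about 1 in 20 such groups. Tfrc kept its call between genotypes in BMM without that library or any other.

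The RANK-L response of 9 genes differed between genotypes by the interaction test of edgeR, where 51.3% of all genes were called. The differences in log2 response, null minus WT, were 2.40 for Hmox1, 0.92 for Blvrb, 0.96 for Ftl1, 1.77 for Fth1, 4.23 for Slc40a1, -4.0 for Tfrc, 1.74 for Slc11a1, -0.92 for Slc11a2 and -2.87 for Spic. The genotype effect also differed between OB and OC cultures for 8 genes, where 55.2% of all genes were called. The differences, OB minus OC, were -3.44 for Hmox1, -2.01 for Blvrb, -2.14 for Ftl1, -3.06 for Fth1, -2.44 for Slc40a1, 3.52 for Tfrc, -2.35 for Slc11a1 and -0.61 for Slc11a2.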

How the results depend on the processing

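The counts of called genes among the 10 stayed within 1.5 times of their value under each alternative. In the null RANK-L response the count of 3 ran from 2 to 4 with 1 library left out, and over all genes the count of 1628 fell to 985 with the replicate block, 1114 with no filter and 1225 with the length and GC offset; null against WT OB fell from 4420 to 2023 with that offset.

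Signs changed only for small differences that were not called. Tfrc in null against WT OB was -0.02 with the offset. In the null RANK-L response Tfrc was -0.01 with no filter, with the library total alone and with TMM without the ferritins, -0.0012 with the replicate block, and between -0.03 and 0.07 with 1 library left out; Slc48a1 was -0.03 with the offset, Fth1 ran from -0.03 to 0.11 and Slc40a1 from -0.02 to 0.09 with 1 library left out. The Slc11a2 share in BMM was 0.02 points over only 2 transcripts and ran from -0.41 to 0.44 points with 1 library left out, and from -0.01 to 0.68 in the null response. The cause was not tested.

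Replicate numbers were not taken to pair the libraries, since in no comparison did all 6 pairs have a correlation of same-numbered deviations over 0.1. The most were 3 of 6 pairs, in null against WT OB (-0.20 to 0.16); in OC against BMM in WT it was 1 of 6 (-0.07 to 0.14), with 3 of 6 pairs fitting best with their own number, and in null against WT BMM 0 of 6 (-0.28 to 0.08). With the replicate block, the 2 Slc11a2 share differences of -10.58 and 10.78 points had an adjusted p of 0.0781, since permuting signs within 6 pairs allows no smaller one here, and Slc11a1 lost its call in the null response (0.0787), as it did with no filter (0.0632) and the offset (0.148). DESeq2 called Slc11a2 there (0.0455). Counting error limits Spic most, at no more than 15.5 CPM.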
